A study of Homo sapiens with 14 samples.

Results

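Messenger RNA of 50 genes known to respond to androgen in prostate cells, other than the kallikreins, was measured in 3 prostate cancer cell lines treated with SEL120-34A, which inhibits CDK8 and CDK19, the kinases of the Mediator complex. The members were found by gene symbol from a list, which was drawn up with earlier results of these data known, and all 50 were found among the 62703 genes of the deposited count table. Enough counts for a test were present for 36 of them in LNCaP and 22Rv1 cells, and 14 fell below the filter on low counts. CAMK2N1, which encodes an inhibitor of the calcium/calmodulin-dependent kinase CaMKII, and STEAP1, a membrane protein of the prostate epithelium, rose in both lines. PLPP1, FOLH1 and ZMIZ1 rose in LNCaP cells, and TMPRSS2, TPD52, PMEPA1 and MYL12A rose in 22Rv1 cells. A single member passed the test for a fall within a line, the fatty acid enzyme ACSL3 in 22Rv1 cells. The calls of CAMK2N1 in both lines and of MYL12A in 22Rv1 held under every alternative processing that could be fitted. Each of the others was lost under some alternative, and that of TMPRSS2 rested on few counts.

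Androgen binds the androgen receptor, which enters the nucleus, occupies enhancers together with pioneer factors and recruits coactivators and the Mediator complex to switch on genes of the secretory prostate epithelium. The members include genes of secreted and cell surface proteins, enzymes that supply lipids and sugars for secretion, transporters, signalling proteins and regulators of transcription. Whether androgen raises or lowers each member was not examined here. CDK8 and CDK19 are alternative kinases of a Mediator module that modulates the contact between enhancer-bound factors and RNA polymerase.

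To investigate whether inhibition of these kinases acts like loss of the Mediator subunit MED12, the study treated LNCaP, 22Rv1 and PC3 cells over 3 days with 1.5 µM SEL120-34A or with the solvent alone (DMSO). LNCaP cells depend on androgen and are sensitive to the receptor antagonist enzalutamide. 22Rv1 cells respond to androgen, are enzalutamide-resistant and carry a shortened androgen receptor variant, whereas PC3 cells lack the androgen receptor. All groups grew in medium with serum, and the sources name no removal or addition of androgen in any group. Each line is a single established cancer cell line, with LNCaP and 22Rv1 each represented by 3 libraries an arm and PC3 by 1.

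The libraries held 291056 to 759548 counts in LNCaP, 246063 to 777207 in 22Rv1 and 581208 to 909176 in PC3, and all 3 treated 22Rv1 libraries (246063 to 368778) were shallower than their controls (476455 to 777207). Levels are given in CPM, read counts scaled to library size. In bulk RNA, fewer cells that express a gene and less of its RNA per cell cannot be told apart. As a check of the labels, 8 markers of PC3 and mesenchymal cells summed to 36.7 to 78.0 CPM in LNCaP, 99.8 to 147 CPM in 22Rv1 and 4450 to 4580 CPM in PC3 libraries, with CD44 and AXL at 0 in treated LNCaP and AXL at 0 in control 22Rv1 libraries. Of 6 stromal and immune markers, COL1A2, DCN and PTPRC were at 0 in every group, and the sum was 0 to 18.3 CPM in LNCaP and 22Rv1 libraries and 94.7 to 95.8 CPM in PC3 libraries. The kallikrein KLK3, the gene of prostate-specific antigen, gave 1218 ± 167 CPM in control and 331 ± 81.5 CPM in treated LNCaP libraries (SD, n = 3; adjusted p = 1.35e-11). In 22Rv1 its log2 fold change was −0.40 (adjusted p = 0.705).

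Promoter sequence was available for 38 of the 50 members from RefSeq (GRCh38.p14), as 71 windows from 250 bases before to 50 after an annotated start. The androgen receptor is known to bind inverted pairs of a half-site with the letters AGAACA, or TGTTCT on the other strand. One or both of these spellings occurred in the windows of 5 of the 38 members (13.2%: PMEPA1, TRPM8, IQGAP2, STK39 and TSC22D1), compared with 17.5% of 27195 genes searched the same way. The 2 shares come from unlike windows. The median share of G and C bases was 66.7% in the members' windows and 58.7% in all windows. The 38 members had 71 windows, and the 27195 genes had 34961. The inverted pair, AGAACA and TGTTCT on either side of 3 free bases, was in none of the members' windows and in 1 of 34961 windows of all genes. A match is a run of letters, not a binding site, and androgen receptor enhancers often lie far from the start. The 250 bases before a start are given for STEAP1, which rose in both lines, for ACSL3, which fell, and for PMEPA1 and TSC22D1, which have a half-site in a window and rose in 22Rv1 or in the average over both lines. Half-sites are in capitals, and each sequence is written 5′ to 3′ on the strand of the gene. The PMEPA1 window printed is 1 of 4 for that gene, another of which has AGAACA 22 bases after its start, and the TSC22D1 window is 1 of 5.
STEAP1, chr7:90154219-90154468, plus strand: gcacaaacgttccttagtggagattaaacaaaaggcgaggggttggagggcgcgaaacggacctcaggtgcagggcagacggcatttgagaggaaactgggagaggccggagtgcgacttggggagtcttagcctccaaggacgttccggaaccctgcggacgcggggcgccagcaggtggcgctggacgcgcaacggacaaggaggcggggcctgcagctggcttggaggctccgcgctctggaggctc
ACSL3, chr2:222860786-222861035, plus strand: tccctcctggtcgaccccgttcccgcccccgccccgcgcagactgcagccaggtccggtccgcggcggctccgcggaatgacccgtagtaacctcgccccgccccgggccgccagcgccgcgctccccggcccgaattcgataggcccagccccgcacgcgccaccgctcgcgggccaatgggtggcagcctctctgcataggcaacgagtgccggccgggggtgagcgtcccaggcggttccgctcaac
PMEPA1, chr20:57710578-57710827, minus strand: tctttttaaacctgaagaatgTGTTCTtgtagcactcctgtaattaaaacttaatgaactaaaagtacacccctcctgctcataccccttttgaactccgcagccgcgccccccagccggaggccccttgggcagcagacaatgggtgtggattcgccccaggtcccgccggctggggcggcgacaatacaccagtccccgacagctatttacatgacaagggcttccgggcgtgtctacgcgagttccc
TSC22D1, chr13:44474342-44474591, minus strand: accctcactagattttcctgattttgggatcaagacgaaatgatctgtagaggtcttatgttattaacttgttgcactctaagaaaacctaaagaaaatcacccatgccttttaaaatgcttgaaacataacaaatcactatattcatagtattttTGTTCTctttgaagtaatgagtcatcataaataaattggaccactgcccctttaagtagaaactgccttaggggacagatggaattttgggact
The half-site began 229 bases before the start in the PMEPA1 window and 94 bases before it in the TSC22D1 window.

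In LNCaP cells, 5 of the 36 tested members rose and 0 fell at an adjusted p under 0.05 by edgeR, the threshold for a change throughout. Over all 7086 genes tested, 2.77% passed (1.99% higher and 0.776% lower), so the members' share of 13.9% lay above that of all genes. The count of falls at an unadjusted p under 0.05 was 4, or 11.1% of the members, compared with 5.63% of all genes. At the adjusted threshold DESeq2 and limma-trend also gave 0 falls. The nearest, UBE2J1, passed as a fall in 9 of 21 alternatives. The log2 fold change was above 0 for 25 members and below 0 for 11, with a median of 0.21 compared with 0.00 for all genes. Summed over the 50 members, the level was 5492 to 6087 CPM in control and 6749 to 7466 CPM in treated libraries. Such a sum is weighted toward members with high levels, here STEAP1 and FOLH1 most of all, and does not stand for a rise of every member.

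In 22Rv1 cells, 6 of the 36 members rose and 1 fell, a share of 19.4% compared with 5.7% of all genes (4.15% higher and 1.55% lower). The log2 fold change was above 0 for 19 members and below 0 for 17, and the median of 0.04 was close to that of all genes at 0.00. The summed level was 2299 to 2540 CPM in control and 2698 to 2863 CPM in treated libraries. With libraries scaled by their totals alone, which shifted the median of all genes by −0.08 in LNCaP and −0.14 in 22Rv1 on the log2 scale, 5 members rose and 3 fell in 22Rv1. Under that scaling, the rises among all genes called went from 141 of 196 to 99 of 189 in LNCaP and from 294 of 404 to 144 of 375 in 22Rv1. With all libraries thinned to the smallest total, 4 members rose and 1 fell in 22Rv1, among 32 tested. Of all genes 292 of 5164 were called there, 179 of them higher.

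**Figure D1:**
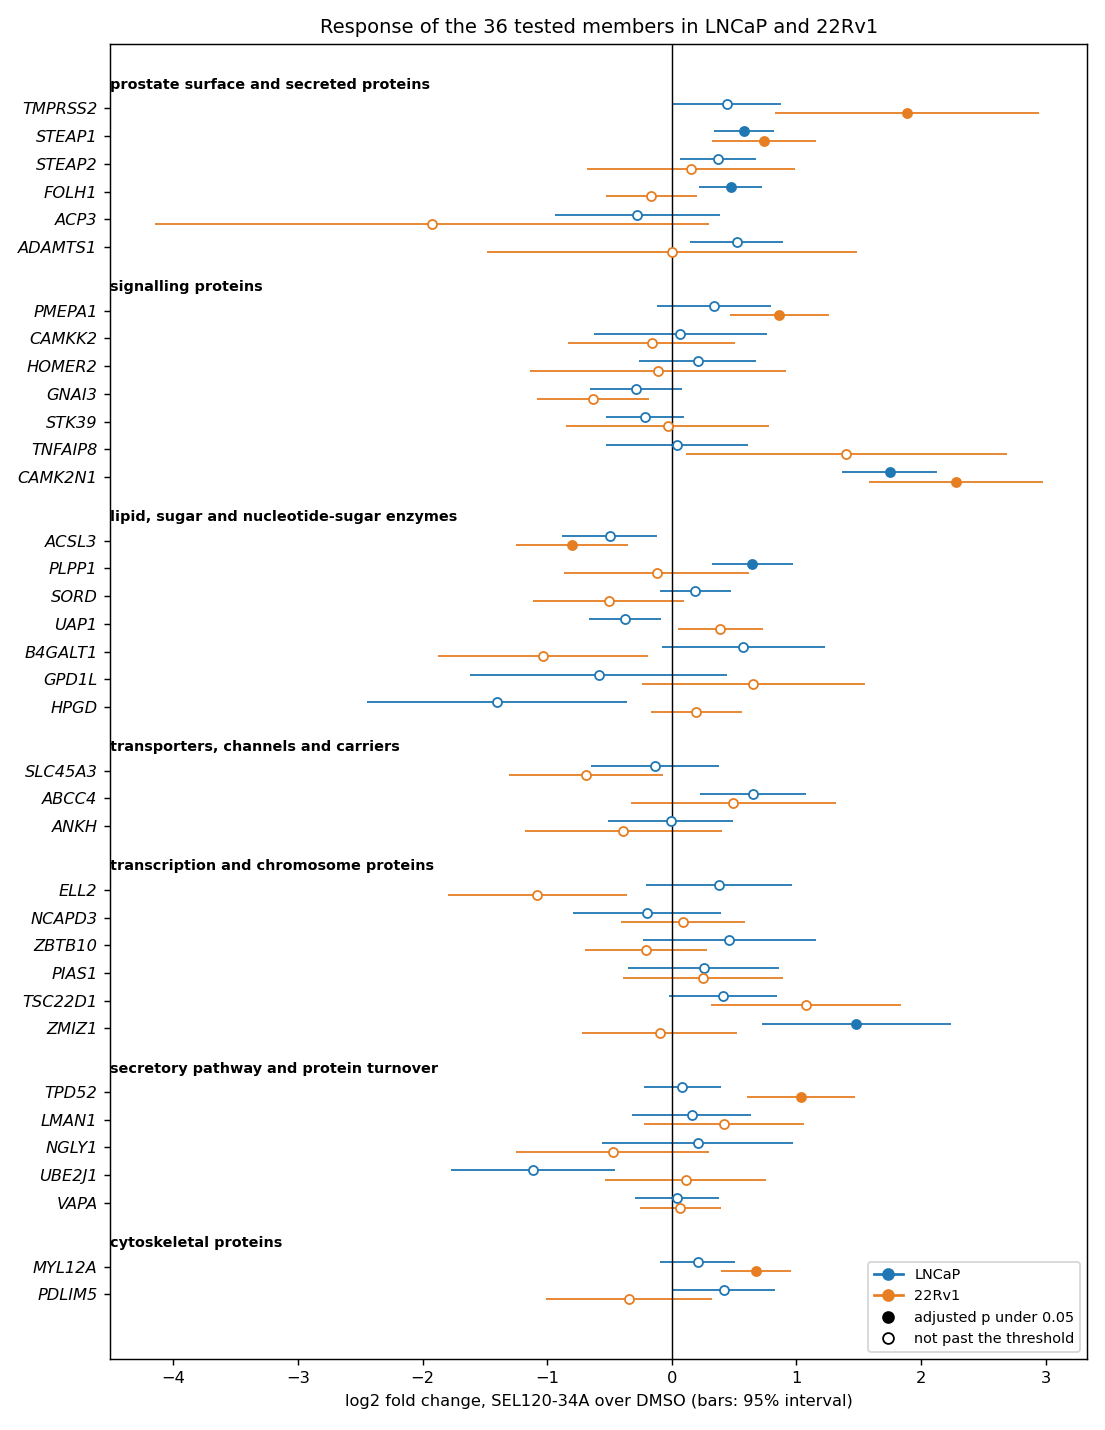
Log2 fold change of SEL120-34A over DMSO (x axis) for the 36 tested members by role (y axis), in LNCaP (blue) and 22Rv1 (orange), with 95% intervals as bars and filled points for an adjusted p under 0.05. In LNCaP 5 points are filled, all to the right of 0, and in 22Rv1 7 are filled, 6 to the right and ACSL3 to the left; the fitted values of ACP3 and ADAMTS1 in 22Rv1 and of HPGD in LNCaP rest on 3 or fewer counts in each treated library.

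The treated libraries did not overlap with the control libraries for 14 of the 36 members in LNCaP (9 above and 5 below) and for 14 in 22Rv1 (9 above and 5 below). This was 38.9% of the members in each line, compared with 19.4% of all genes in LNCaP and 23% in 22Rv1.

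Among the surface and secreted proteins, 6 of 8 members could be tested, and 2 rose in each line with no fall. STEAP1 (ENSG00000164647.9, chr7:90154456-90164829) belongs to a family of membrane metalloreductases and is a target of antibody therapy. Its level was 817, 783 and 733 CPM in control LNCaP libraries and 1064, 1119 and 1221 CPM in treated ones. In 22Rv1 it was 64.8, 61.8 and 58.4 CPM in controls and 118.5, 112 and 77.0 CPM after treatment. All treated libraries lay above all controls in both lines, and the ranges of the lines were far apart. The log2 fold change was 0.58 ± 0.12 (SE; adjusted p = 0.00246) in LNCaP and 0.74 ± 0.21 (adjusted p = 0.0264) in 22Rv1. The call in 22Rv1 was lost without any one of 5 libraries, at an adjusted p of 0.0535 to 0.224, and with totals alone (0.0737) or no filter on low counts (0.136), and it remained without treated replicate 3. STEAP1 was not called in LNCaP by limma-trend (adjusted p = 0.134).

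STEAP2, the neighbouring gene on chromosome 7 (chr7:90167590-90238137) and a member of the same family, was measured at 179, 204 and 187 CPM in control and 210.5, 247 and 253 CPM in treated LNCaP libraries. These groups did not overlap, but the log2 fold change of 0.37 ± 0.15 did not pass (adjusted p = 0.229). In 22Rv1 it lay at 13.1 to 16.9 CPM in controls and 13.8 to 17.2 CPM after treatment, with an interval of the log2 fold change from −0.68 to 0.99.

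TMPRSS2 (ENSG00000184012.14, chr21:41464300-41531116) encodes a membrane serine protease whose androgen-driven promoter is fused to ERG in many prostate cancers. In LNCaP its level was 121, 81.2 and 89.5 CPM in controls and 156, 117 and 129 CPM after treatment. These ranges overlapped and the log2 fold change of 0.44 ± 0.22 did not pass (adjusted p = 0.355). In 22Rv1 it was 3.93, 11.2 and 3.58 CPM in controls, which were 2, 6 and 3 counts, and 27.6, 30.0 and 11.4 CPM after treatment, which were 10, 7 and 4 counts. The treated 22Rv1 libraries lay just above the controls, and the rise of 1.89 ± 0.52 passed (adjusted p = 0.0246) but rested on few counts. Without control replicate 1 or 3 or treated replicate 1 or 2 it did not pass (adjusted p of 0.0723, 0.151, 0.159 and 0.132), nor with all libraries thinned to the smallest total (0.399).

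FOLH1 (ENSG00000086205.18, chr11:49145092-49208638) encodes prostate-specific membrane antigen, a carboxypeptidase used for imaging. It was measured at 734, 723 and 675 CPM in control and 1037, 813 and 1043 CPM in treated LNCaP libraries. The groups did not overlap, and the rise of 0.47 ± 0.12 on the log2 scale passed (adjusted p = 0.0255). It no longer passed without any one of the 3 controls or treated replicate 1 or 3 (adjusted p of 0.0521 to 0.167), with totals alone (0.0822), with no filter on low counts (0.262) or by limma-trend (0.228). In 22Rv1 the levels were 153, 163 and 128 CPM in controls and 149, 116 and 120 CPM after treatment, which overlapped (log2 fold change −0.16, interval −0.53 to 0.20). FOLH1B, a near-identical copy, held 0 to 6 counts in the LNCaP and 22Rv1 libraries.

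ADAMTS1, a secreted metalloprotease, was at 117 to 218 CPM in control and 190 to 282 CPM in treated LNCaP libraries, which overlapped (log2 fold change 0.52 ± 0.18, adjusted p = 0.141). In 22Rv1 it had 1 to 6 counts per library. ACP3, prostatic acid phosphatase, was at 35.0 to 47.9 CPM in control and 19.5 to 38.0 CPM in treated LNCaP libraries (adjusted p = 0.783). In 22Rv1 ACP3 had 2, 3 and 4 counts in control and 0, 0 and 1 in treated libraries, so that no fold is given.

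**Figure D2:**
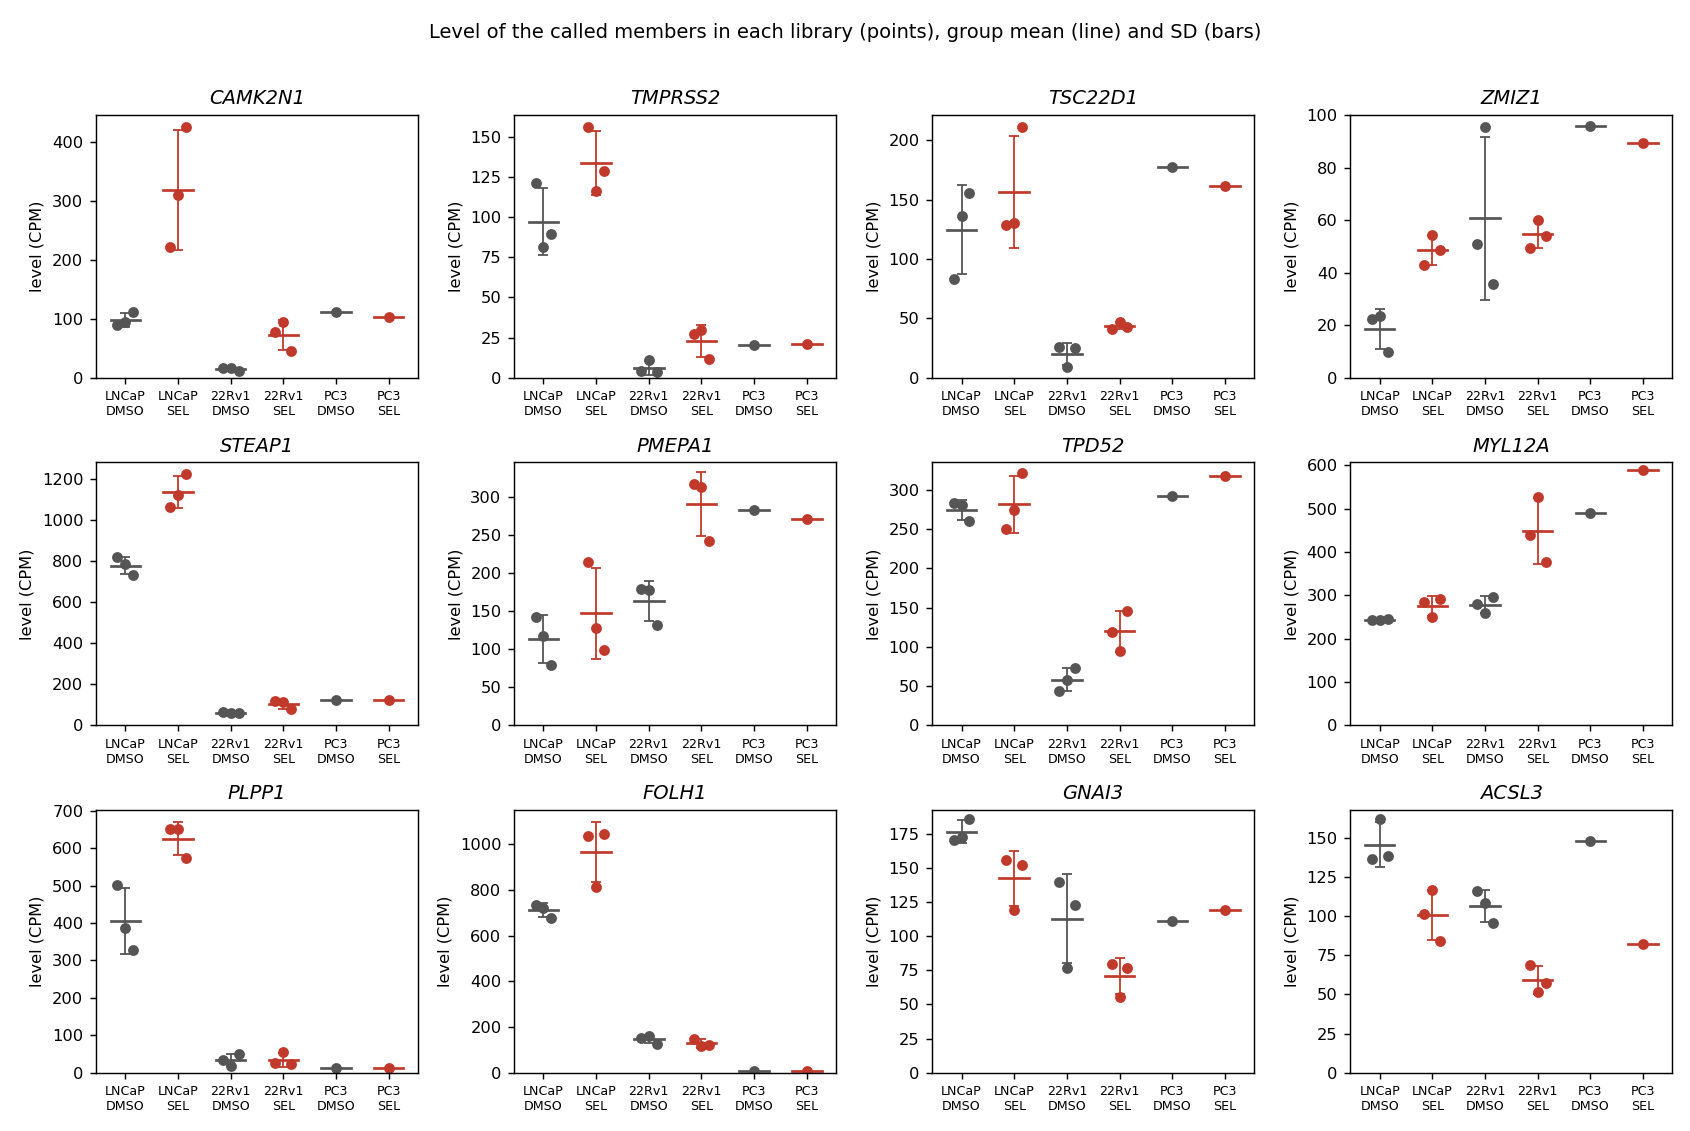
Level in CPM (y axes, each from 0) of the 12 members past the threshold in LNCaP, in 22Rv1 or in the average of both, in each library of the 6 groups (x axes), with points for libraries, a line for the mean and bars for the SD of 3 libraries (none for PC3, which has 1 library per arm). The treated LNCaP libraries of CAMK2N1 sit between 222 and 424.5 CPM, above the controls at 88.7 to 112 CPM, and the ACSL3 levels after treatment lie below the controls in all 3 lines.

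The signalling proteins had 11 members, of which 7 were tested. CAMK2N1 (ENSG00000162545.6, chr1:20482391-20486210) had the smallest adjusted p of the members in both lines. In LNCaP its level was 88.7, 94.3 and 112 CPM in controls and 222, 309 and 424.5 CPM after treatment. In 22Rv1 it was 15.7, 16.9 and 11.9 CPM in controls and 77.2, 94.4 and 45.6 CPM after treatment. Every treated library lay above every control of its line. The level was 3.37-fold higher in LNCaP (log2 fold change 1.75 ± 0.19, adjusted p = 1.23e-08) and 4.85-fold higher in 22Rv1 (2.28 ± 0.35, adjusted p = 1.75e-05). Both calls held under every alternative that could be fitted.

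PMEPA1 (ENSG00000124225.16, chr20:57648392-57711536) encodes an androgen-induced membrane protein that dampens TGF-beta signalling. Its level in 22Rv1 was 179, 178 and 132 CPM in controls and 317, 313 and 242 CPM after treatment, with no overlap. The rise was 0.86 ± 0.20 on the log2 scale (adjusted p = 0.00436), and it did not pass without control replicate 3 (adjusted p = 0.0647) or by limma-trend (0.151). In LNCaP the levels were 142, 118 and 79.7 CPM in controls and 214, 127 and 99.3 CPM after treatment, which overlapped (0.34 ± 0.23, adjusted p = 0.547).

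GNAI3 (ENSG00000065135.12, chr1:109548615-109600195), an inhibitory G protein subunit, did not pass within a line. In LNCaP it was at 170, 173 and 186 CPM in controls and 156, 119 and 152 CPM after treatment, which did not overlap. In 22Rv1 it was at 139, 76.7 and 123 CPM in controls and 79.9, 55.8 and 77.0 CPM after treatment, where the highest treated library lay above the lowest control. The log2 fold changes were −0.29 ± 0.18 (adjusted p = 0.518) and −0.63 ± 0.22 (adjusted p = 0.0858).

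TNFAIP8, which protects cells from death receptor signals, had 46.1 to 57.6 CPM in control and 31.2 to 65.1 CPM in treated LNCaP libraries, and 2 to 5 counts per library in 22Rv1 (adjusted p = 0.213). STK39, a kinase of ion transport, was at 256 to 298.5 CPM in control and 191 to 270 CPM in treated LNCaP libraries (adjusted p = 0.588), and its interval in 22Rv1 ran from −0.85 to 0.78. HOMER2, a synaptic scaffold protein, had a log2 fold change of 0.21 in LNCaP, compared with −0.11 in 22Rv1. CAMKK2, a kinase upstream of AMPK, had the values 0.07 and −0.16.

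Of 9 enzymes of lipid, sugar and nucleotide-sugar metabolism, 7 were tested, with 1 rise in LNCaP and 1 fall in 22Rv1. ACSL3 (ENSG00000123983.15, chr2:222860942-222944639) activates long-chain fatty acids for storage in lipid droplets. Its level in 22Rv1 was 116, 109 and 95.4 CPM in controls and 68.9, 51.5 and 57.1 CPM after treatment. In LNCaP it was 137, 162 and 138 CPM in controls and 101, 117 and 84.5 CPM after treatment. All treated libraries lay below all controls in both lines. ACSL3 fell by 0.80 on the log2 scale in 22Rv1 (SE 0.22, adjusted p = 0.0246), whereas the value of −0.50 ± 0.19 in LNCaP did not pass (adjusted p = 0.179). The fall in 22Rv1 was not called without control replicate 1 (adjusted p = 0.0594) or any one of the 3 treated libraries (0.0507, 0.129 and 0.0939).

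PLPP1 (ENSG00000067113.17, chr5:55424854-55534969), a phospholipid phosphatase of the cell surface, was at 501.5, 387.5 and 329 CPM in control and 651, 650.5 and 574 CPM in treated LNCaP libraries. The groups did not overlap, and the rise was 0.65 ± 0.16 on the log2 scale (adjusted p = 0.0162). It did not pass without control replicate 2 or 3 or treated replicate 1 or 2 (adjusted p of 0.0716, 0.179, 0.0842 and 0.0945) or by limma-trend (0.519). In 22Rv1 the levels of 16.9 to 48.9 CPM in controls and 22.8 to 55.8 CPM after treatment overlapped (interval −0.86 to 0.62). PLPP1 overlaps MTREX on the other strand, which held 252 counts over all libraries compared with 1534 for PLPP1, and whether counting used the strand was not given in the sources used here.

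The prostaglandin-degrading enzyme HPGD had 10, 7 and 15 counts in control and 3, 3 and 1 counts in treated LNCaP libraries, with no overlap (adjusted p = 0.167). In 22Rv1 it was at 145.5 to 182 CPM in controls and 163 to 204 CPM after treatment. UAP1, which makes UDP-N-acetylglucosamine, was at 382, 435 and 404 CPM in control and 257, 271 and 374 CPM in treated LNCaP libraries, all below. In 22Rv1 UAP1 was at 153, 138.5 and 163 CPM in controls and 196, 215 and 188 CPM after treatment, all above. Neither value passed (−0.38 ± 0.14, adjusted p = 0.183, and 0.39 ± 0.17, adjusted p = 0.178). B4GALT1, a galactosyltransferase of the Golgi, had a log2 fold change of 0.57 ± 0.32 in LNCaP (adjusted p = 0.452) and −1.04 ± 0.42 in 22Rv1 (adjusted p = 0.144). SORD, which converts sorbitol to fructose, had the values 0.19 and −0.50, and its copy SORD2P held 99 to 228 counts in LNCaP libraries compared with 128 to 262 for SORD, so reads may be divided between them. GPD1L, a glycerol phosphate dehydrogenase, had the values −0.59 and 0.65.

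Of the 5 transporters and channels 3 were tested, and edgeR called 0 in either line, with ABCC4 in LNCaP and SLC45A3 in 22Rv1 at an unadjusted p under 0.05. DESeq2 and limma-trend also called 0 of the 3. ABCC4, an efflux pump for cyclic nucleotides and prostaglandins, was at 107, 68.1 and 69.9 CPM in control and 140, 130 and 118 CPM in treated LNCaP libraries, which did not overlap (0.65 ± 0.21, adjusted p = 0.101). Without LNCaP control replicate 1 it passed (adjusted p = 0.0298). SLC45A3, the prostate antigen prostein, was at 55.0, 39.3 and 46.5 CPM in control and 24.8, 38.6 and 25.7 CPM in treated 22Rv1 libraries (−0.69 ± 0.31, adjusted p = 0.199). ANKH, which exports ATP and pyrophosphate, had a log2 fold change of −0.01 in LNCaP, compared with −0.39 in 22Rv1.

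Among 7 transcription and chromosome proteins, 6 were tested, with 1 rise in LNCaP and none called by edgeR in 22Rv1, where TSC22D1 and ELL2 had an unadjusted p under 0.05. ZMIZ1 (ENSG00000108175.19, chr10:79068966-79316519) encodes a coactivator that binds the androgen receptor. Its level was 22.5, 23.6 and 9.79 CPM in control LNCaP libraries and 42.9, 54.2 and 48.6 CPM in treated ones, all above. The rise of 1.48 ± 0.38 on the log2 scale passed (adjusted p = 0.0195), but the controls held 16, 9 and 7 counts. It did not pass without control replicate 3 (adjusted p = 0.192) or treated replicate 2 (0.116), after thinning (0.147) or by limma-trend (0.148). In 22Rv1 the levels of 51.0, 95.5 and 35.8 CPM in controls enclosed those of 49.6, 60.1 and 54.2 CPM after treatment.

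TSC22D1 (ENSG00000102804.15, chr13:44432143-44577147) encodes a leucine zipper protein induced by TGF-beta. In LNCaP it was at 83.1, 136 and 155 CPM in controls and 129, 130 and 211 CPM after treatment, which overlapped. In 22Rv1 it was at 25.5, 9.36 and 25.1 CPM in controls and 41.3, 47.2 and 42.8 CPM after treatment, which did not overlap. Neither value passed within a line (0.41 ± 0.22, adjusted p = 0.405, and 1.08 ± 0.38, adjusted p = 0.084). ELL2, an elongation factor of RNA polymerase II, was at 47.1, 86.1 and 47.7 CPM in control and 24.8, 38.6 and 22.8 CPM in treated 22Rv1 libraries, all below. Its log2 fold change of −1.08 ± 0.36 did not pass (adjusted p = 0.0632) and was 0.38 ± 0.29 in LNCaP. ZBTB10, a zinc finger repressor, had the values 0.46 and −0.21, PIAS1, a SUMO ligase, 0.26 and 0.25, and NCAPD3, a condensin II subunit, −0.20 and 0.09. NCAPD3 overlaps VPS26B and JAM3 on the other strand, which held 503 and 40 counts compared with 400 for NCAPD3.

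Of 8 proteins of the secretory pathway and protein turnover, 5 were tested, and 1 rose in 22Rv1. TPD52 (ENSG00000076554.16, chr8:80034745-80231232) encodes a vesicle trafficking protein that is amplified in prostate cancer. Its level was 43.2, 58.0 and 72.8 CPM in control 22Rv1 libraries and 118.5, 94.4 and 145.5 CPM in treated ones, all above. The level was 2.05-fold higher (log2 fold change 1.04 ± 0.21, adjusted p = 0.0014), and the call was lost after thinning (adjusted p = 0.057). In LNCaP the levels of 283, 280 and 260 CPM in controls and 249.5, 274 and 321 CPM after treatment overlapped, with an interval from −0.22 to 0.39. UBE2J1, a ubiquitin-conjugating enzyme of the endoplasmic reticulum, was at 71.8, 65.5 and 85.3 CPM in control and 19.5, 19.0 and 54.9 CPM in treated LNCaP libraries. The treated libraries were all below, and the log2 fold change of −1.11 ± 0.33 lay next to the threshold (adjusted p = 0.0518); it passed in 9 of 21 alternatives. LMAN1, a cargo receptor, had the values 0.16 and 0.42 in LNCaP and 22Rv1, NGLY1, which removes sugar chains from misfolded proteins, 0.21 and −0.48, and VAPA, an anchor of the endoplasmic reticulum, 0.04 and 0.07.

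Both cytoskeletal proteins were tested. MYL12A (ENSG00000101608.13, chr18:3247481-3256236), a regulatory light chain of non-muscle myosin, was at 281, 258 and 297 CPM in control and 438, 528 and 376.5 CPM in treated 22Rv1 libraries, all above. The rise of 0.68 ± 0.14 on the log2 scale (adjusted p = 0.00149) held under every alternative that could be fitted. In LNCaP the levels were 242, 243.5 and 245 CPM in controls and 285, 249 and 291 CPM after treatment (0.21 ± 0.15, adjusted p = 0.587). MYL12B, its near-identical neighbour, had a log2 fold change of 0.44 in 22Rv1 (adjusted p = 0.0247), and reads may be divided between them. PDLIM5, which links signalling enzymes to actin, was at 91.6 to 118 CPM in control and 125 to 146 CPM in treated LNCaP libraries (0.42 ± 0.20, adjusted p = 0.36).

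The mean of the effects in LNCaP and 22Rv1 was also tested, over 6 libraries an arm. It shares its libraries with the comparisons above, and 1 line can carry it, as for TPD52 with 0.09 in LNCaP and 1.04 in 22Rv1. The average rose for 7 members and fell for 2, or 25% of the members, compared with 6.01% of all genes (3.88% higher and 2.13% lower). The rises were CAMK2N1 (2.02 ± 0.20, adjusted p = 2.03e-09), TMPRSS2 (1.17, adjusted p = 0.00706), TSC22D1 (0.74, 0.0307), STEAP1 (0.66, 0.000308), PMEPA1 (0.60, 0.00883), TPD52 (0.56, 0.00508) and MYL12A (0.44, 0.00459). The falls were ACSL3 (−0.65 ± 0.15, adjusted p = 0.00347) and GNAI3 (−0.46 ± 0.14, adjusted p = 0.0467). GNAI3 was not called in 13 of 21 alternatives (adjusted p of 0.0522 to 0.148), among them the omission of any 1 library other than LNCaP treated replicates 1 and 3 and 22Rv1 control replicate 2. TSC22D1 was not called in 8 of 20, among them the omission of LNCaP control replicate 1 (0.073) or treated replicate 3 (0.103), 22Rv1 control replicate 2 (0.0944) or any treated 22Rv1 library (0.0601 to 0.086). With 1 library left out, TMPRSS2 lost its call without 22Rv1 control replicate 3 (0.0534) or treated replicate 1 (0.0636), and PMEPA1 without LNCaP control replicate 3 (0.0584) or treated replicate 1 (0.0947). Limma-trend called 4 members in the average in place of 9, so most calls other than those of STEAP1, ACSL3 and CAMK2N1 were lost there. STEAP1, ACSL3 and CAMK2N1 were called in all alternatives that could be fitted.

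**Figure D3:**
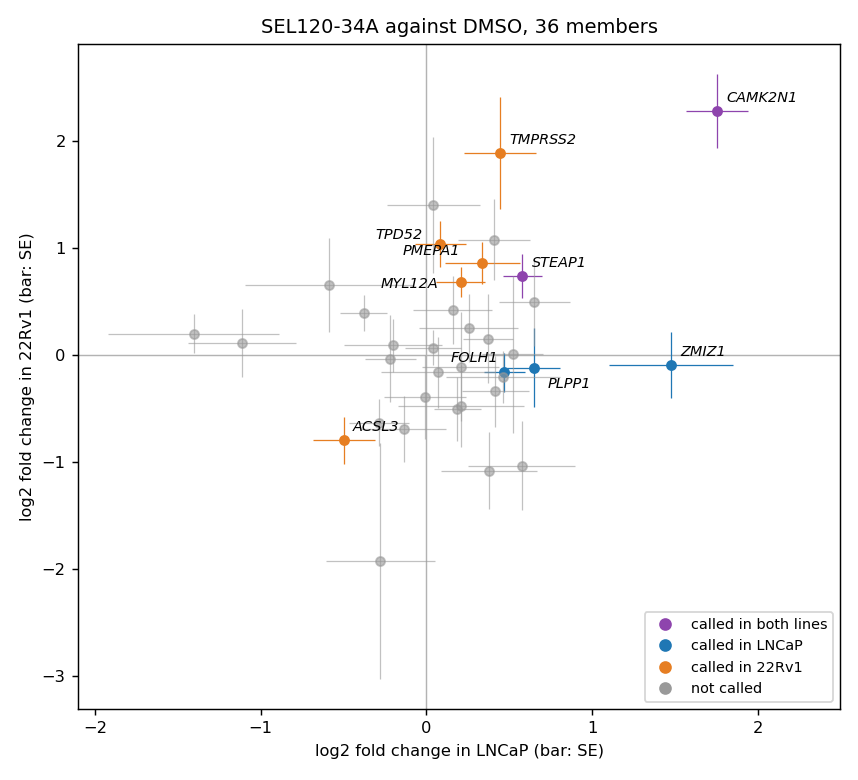
Log2 fold change of SEL120-34A over DMSO in LNCaP (x axis) and in 22Rv1 (y axis) for the 36 tested members, with bars for the SE and colours for members past the threshold in both lines, in 1 line or in neither. CAMK2N1 and STEAP1 are past the threshold in both lines, and ZMIZ1, at 1.48 in LNCaP, lies at −0.10 in 22Rv1.

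A change called in 1 line and not in the other does not show that the lines differ, so the difference of the effects (LNCaP minus 22Rv1) was tested. It was called by edgeR for 0 of the 36 members, compared with 0.734% of all genes (0.268% higher and 0.466% lower). DESeq2 and limma-trend also called 0. An unadjusted p under 0.05 by edgeR was found for 11 members (30.6%, 5 higher and 6 lower), compared with 11.4% of all genes. TPD52 came nearest, with a difference of −0.95 (interval −1.48 to −0.42, adjusted p = 0.0787), followed by UAP1 with −0.77 (−1.21 to −0.32, adjusted p = 0.104). ZMIZ1 had 1.58 (0.60 to 2.55, adjusted p = 0.142), ELL2 1.46 (0.53 to 2.39, adjusted p = 0.162) and FOLH1 0.63 (0.19 to 1.08, adjusted p = 0.216). For STEAP1 the interval ran from −0.64 to 0.32 and for CAMK2N1 from −1.32 to 0.28, and both intervals include 0. With 1 library left out, a difference was called for UAP1 and UBE2J1 without LNCaP treated replicate 3 (adjusted p of 0.0208 and 0.05) and for ZMIZ1 without 22Rv1 control replicate 3 (0.0393). These 3 were named after their values were seen.

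In the solvent controls, taken at the same 3 days, the members were mostly higher in LNCaP than in 22Rv1 cells. Of the 36 members, 26 differed between the DMSO libraries, 21 of them higher and 5 lower in LNCaP. Of all genes 49% differed (24% higher and 25% lower), and the median log2 difference was 1.26 for the members and −0.03 for all genes. All 6 tested surface and secreted proteins were higher in LNCaP, with log2 differences from 2.28 to 4.71. The filter on low counts bears on this, since a member could pass it through its LNCaP counts alone. TMPRSS2, ADAMTS1 and ACP3 had at most 6 counts in any 22Rv1 control. AZGP1 and STEAP4, of the same role but not tested, were lower in LNCaP controls. Their means were 7.24 and 0 CPM there and 10.5 and 2.33 CPM in 22Rv1, all from few counts. The largest differences among the members were those of ADAMTS1 (4.71 ± 0.32), TMPRSS2 (4.02 ± 0.34), STK39 (3.84 ± 0.21), STEAP2 (3.70 ± 0.22) and STEAP1 (3.66 ± 0.15), each with an adjusted p of 6.71e-13 or less. The level of ADAMTS1 was 174 ± 51.5 CPM in LNCaP and 6.22 ± 0.822 CPM in 22Rv1 controls, where it had 3, 3 and 6 counts.

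**Figure D4:**
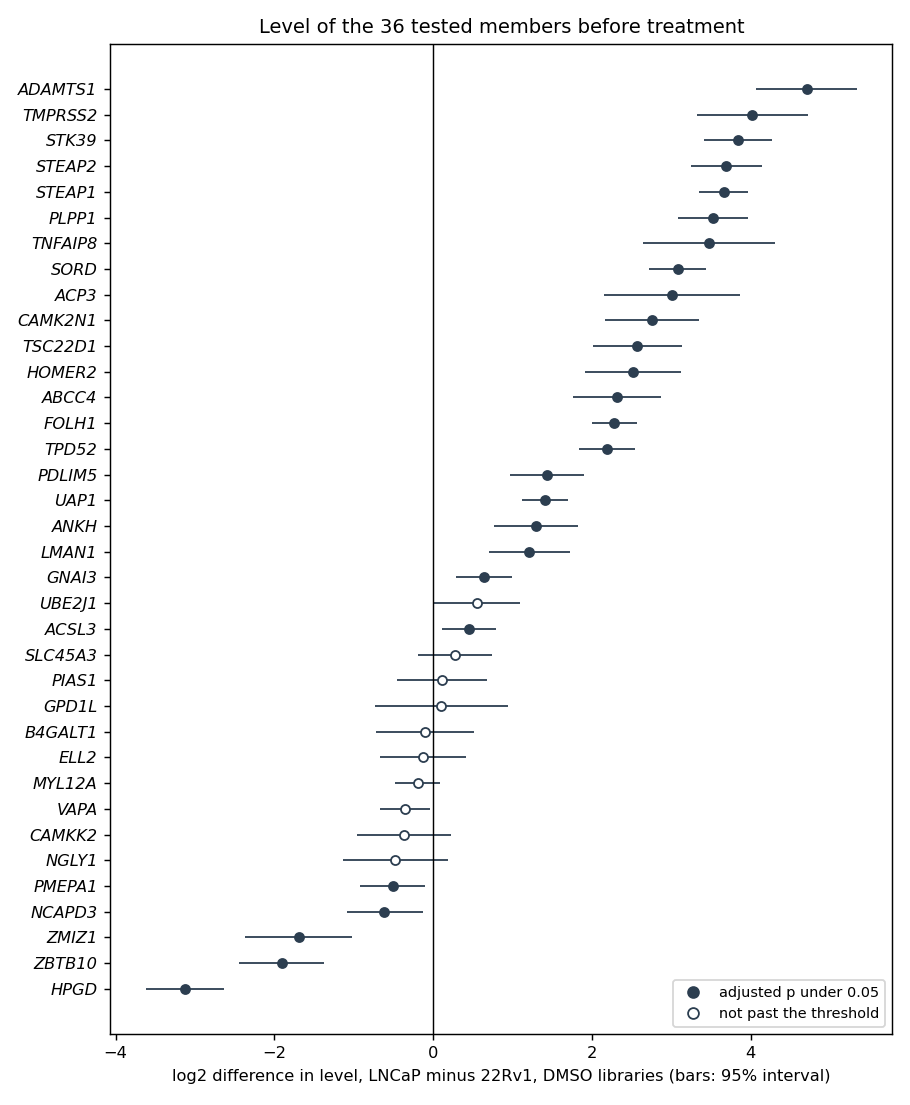
Log2 difference in level between the LNCaP and 22Rv1 DMSO libraries (x axis) for the 36 tested members (y axis), with 95% intervals as bars and filled points for an adjusted p under 0.05. The values run from −3.13 for HPGD to 4.71 for ADAMTS1, and 21 filled points lie to the right of 0 and 5 to the left.

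The 5 members that were lower in LNCaP were HPGD (−3.13 ± 0.24), ZBTB10 (−1.91 ± 0.26), ZMIZ1 (−1.69 ± 0.33), NCAPD3 (−0.61 ± 0.24, adjusted p = 0.031) and PMEPA1 (−0.51 ± 0.20, adjusted p = 0.0366). HPGD was at 17.8 ± 3.47 CPM in LNCaP and 158 ± 20.3 CPM in 22Rv1 controls. NCAPD3 was not called without LNCaP control replicate 3 (adjusted p = 0.179) or 22Rv1 control replicate 2 (0.18), and PMEPA1 was not called without any one of 4 control libraries (0.055 to 0.299). CAMK2N1 and STEAP1, which rose in both lines, were higher in LNCaP controls by 2.76 and 3.66 on the log2 scale. The treated 22Rv1 libraries held 77.2, 94.4 and 45.6 CPM of CAMK2N1, of which 1 reached the range of untreated LNCaP cells (88.7 to 112 CPM), and none of them did so for STEAP1.

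In PC3 cells, which lack the androgen receptor, 1 library per arm allowed no test. With at least 10 counts in 1 or both libraries, 38 members could be described, of which 0 rose and 2 fell by 2-fold or more, compared with 1.98% and 4.36% of 9143 genes (6.34% in all). STEAP4, a metalloreductase, went from 21 to 3 counts (log2 ratio −1.69) and TNFAIP8 from 33 to 9 counts (−1.06). The log2 ratio was above 0 for 18 members and below 0 for 20, and its median was −0.02, the same as for all genes. ACSL3 was at 148 CPM in the control and 82.4 CPM in the treated library (−0.83), and UBE2J1 at 86.0 and 45.6 CPM (−0.88). CAMK2N1 was at 111 and 103.5 CPM and STEAP1 at 121 and 123 CPM, so that neither showed in this pair of libraries the rise seen in the other lines. ALDH1A3, a retinaldehyde dehydrogenase with at most 18 counts in any LNCaP or 22Rv1 library, was at 539 CPM in the control (495 counts, and 197 counts after treatment), and HPGD was at 280 CPM. The summed level of the 50 members was 3934 CPM in the control and 3873 CPM in the treated library.

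The remaining 14 members fell below the filter on low counts for LNCaP and 22Rv1. With the PC3 libraries added to the fit, 7 of them were kept, and none of the 7 passed for the treatment in either line by edgeR, where MAF in 22Rv1 alone had an unadjusted p under 0.05. Between the DMSO groups TRPM8 (adjusted p = 6.79e-05), ALDH1A3 (4.67e-05) and MAF (1.35e-06) passed in that fit, each higher in LNCaP. Passing was common there among all genes. Of the genes with deposited log2 CPM values, which that fit kept, 4085 passed between the DMSO groups, 1934 of them higher in LNCaP. The number of passes therefore does not set these members apart from all genes. NDRG1, a stress-response gene, had 0 or 1 count in each of the 14 libraries, and MERTK, a receptor kinase, had 0 to 2. TRPM8, the cold-sensing channel of the prostate epithelium, had 3 to 14 counts in LNCaP, 0 or 1 in 22Rv1 and 0 in both PC3 libraries. ALDH1A3 had 18, 10 and 7 counts in control and 3, 5 and 10 in treated LNCaP libraries, and MAF, a transcription factor, 18, 7 and 15 in control and 3, 10 and 6 in treated ones, and both sets overlapped. IQGAP2, a scaffold protein, had 3 to 8 counts in control and 2 or 3 in treated LNCaP libraries, and SEC24D, a coat protein of secretory vesicles, 1 to 10 and 1 or 2. AZGP1, a secreted zinc-binding glycoprotein, had 0 to 6 counts in LNCaP and 5 to 9 in 22Rv1, and INPP4B, a lipid phosphatase, 0 to 4 and 0 to 9. STEAP4 and HERC3, a ubiquitin ligase, had at most 5 counts in any LNCaP or 22Rv1 library. APPBP2, which binds the amyloid precursor protein, PGM3, an enzyme of nucleotide-sugar synthesis, and the sulfate transporter SLC26A2 had 0 to 16 counts in these libraries. A count of 0 allowed up to 12.9 CPM in the shallowest and 3.27 CPM in the deepest library, taking 3 counts as the limit, so that a 0 does not show that a member was absent.

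A list of 30 cofactors of the androgen receptor and pioneer factors was examined beside the members. Of the 22 tested, 1 passed in LNCaP and 3 in 22Rv1, each of them a fall (0.776% of all genes fell in LNCaP and 1.55% in 22Rv1), and the median log2 fold change was 0.11 in LNCaP and −0.39 in 22Rv1. In LNCaP CREB3L4, a transcription factor of the secretory prostate, fell from 138 ± 9.95 to 79.5 ± 22.2 CPM (−0.79 ± 0.21, adjusted p = 0.0269). In 22Rv1 the fall was from 785 ± 156 to 419 ± 57.4 CPM for HSP90AA1, a chaperone of the receptor (−0.88 ± 0.14, adjusted p = 3.81e-05) and from 1965 ± 331 to 1349 ± 232 CPM for its relative HSP90AB1 (−0.53 ± 0.14, adjusted p = 0.015). The difference between the lines passed for HSP90AA1 (0.78 ± 0.20, adjusted p = 0.0461) and for SPDEF, an ETS factor of the prostate epithelium (−1.74 ± 0.40, adjusted p = 0.0265), which did not pass within either line. Of all genes, 0.734% passed for this difference. In the average of both lines 4 of the 22 fell, compared with 2.13% of all genes: HSP90AA1 (−0.49, adjusted p = 0.00117), HSP90AB1 (−0.42, 0.00414), the cochaperone FKBP4 (−0.39, 0.0115) and the pioneer factor FOXA1 (−0.36, 0.0228).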

How the data were processed

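RNA of the 14 samples was sequenced by the study as BRB-seq libraries, in which samples are barcoded at reverse transcription and the 3′ ends of transcripts are read. The authors deposited raw counts per gene, made with STARsolo on GRCh38.p13 and Gencode release 43 according to the labels and the methods of the study. The authors also deposited log2 CPM values for 9638 genes, which edgeR's filter over 6 groups and a prior count of 2 gave back to within 5e-14. These were used for 1 alternative. Strand use and collapsing of molecular identifiers were not given in the sources used here, so intervals of counts and limits at 0 cover counting error only.

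Groups and replicate numbers came from the labels. The study's methods state at least 3 biological replicates for its experiments in general, whereas the labels do not say which cultures the libraries came from. Total counts and depth limits are given with the results. Differences were tested with edgeR version 4.0.16 under R version 4.3.3 (quasi-likelihood F-test, TMM factors, filterByExpr, 4 group means, 12 LNCaP and 22Rv1 libraries, 8 residual degrees of freedom, no replicate block), with Benjamini-Hochberg adjustment over 7086 genes and a threshold of 0.05. The SE is the log2 fold change over the root of F, and intervals are at 95%. CPM used TMM factors over all 14 libraries. PC3 ratios used a prior count of 2. The script was tested on simulated data. Alternatives used DESeq2 1.42.0, limma 3.58.1, other scalings and filters, thinning, a replicate block and each library left out. HERC3 has 2 identifiers, and the one with counts was used. Coordinates are from GENCODE 44 (GRCh38) and promoter windows from RefSeq.

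The members, role groups, lists and tests were chosen with earlier results of these data known. Named were all members past the threshold, up to 3 others per role with the smallest p in either line, the 5 largest baseline differences in each direction, PC3 members past 2-fold and cofactors past the threshold, 1 of which is counted but not reported here. The remaining members are named for completeness.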

Additional observations from a re-analysis of the deposited data

Results flagged for a closer look

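For 2 of the 22 tested genes on the list of cofactors and pioneer factors, the effect of SEL120-34A differed between LNCaP and 22Rv1 cells. This was by the test of the difference itself (edgeR, adjusted over all tested genes), which called 0.734% of all genes. No alternative processing was run for this list. The log2 fold change of SPDEF was −0.76 in LNCaP and 0.98 in 22Rv1, a difference of −1.74 (adjusted p = 0.0265). SPDEF passed in neither line. Its treated libraries lay below the controls in LNCaP, whereas in 22Rv1 they overlapped (20.6 to 49.1 CPM in controls and 42.8 to 79.9 CPM after treatment). That of HSP90AA1 was −0.10 in LNCaP and −0.88 in 22Rv1, a difference of 0.781 (adjusted p = 0.0461). No cause was tested.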

How the results depend on the processing

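Of 91 results for single members, 1877 alternatives were run. The side of the threshold was kept in 1764, the threshold was lost in 84 and gained in 29, and 0 reversed. A change of direction counted as reversed only where the member was called as reported or in the alternative. Changes of direction in members called in neither are among the 1764. The number of members called in LNCaP, 5 as reported, was 2 with at least 10 counts required in every library, where 10 members could be tested, and 1 by limma-trend on the deposited log2 values. In the average of both lines it was 4 by limma-trend in place of 9. In the comparison of the DMSO groups it was 26 of 36 as reported. With at least 10 counts in every library it was 9 of the 10 members tested, so the share called was not lower there. Of all genes, 1503 of 2870 were called between the DMSO groups under that filter, compared with 3473 of 7086 as reported. Leaving out 1 library at a time gave 2 to 7 members in LNCaP (2 without control replicate 3 and 3 without control replicate 2 or treated replicate 1 or 2), 4 to 8 in 22Rv1 (4 without treated replicate 1 or 2), 6 to 9 in the average (6 without 22Rv1 treated replicate 1), 0 to 2 in the difference between lines (2 without LNCaP treated replicate 3 and 1 without 22Rv1 control replicate 3) and 24 to 29 between the DMSO groups. Among all genes, the same omissions gave 87 to 239 calls in LNCaP, 158 to 446 in 22Rv1 and 276 to 456 in the average. They gave 24 to 57 in the difference and 3038 to 3723 between the DMSO groups, among 7205 to 7819 genes tested. The count of members called in 22Rv1 was 5 to 9 under the other alternatives, and the 2 PC3 members remained at 2 under 3 alternatives. With all libraries thinned to the smallest total, 5 members were called in LNCaP and 5 in 22Rv1, compared with 109 and 292 of 5164 genes. Over all genes, the number called in LNCaP was 196 as reported, 101 by DESeq2 and 41 by limma-trend, and in 22Rv1 404, 255 and 201. The causes of these changes were not tested. Some settings leave fewer genes or libraries. Low totals limit members with few counts, such as TMPRSS2 in 22Rv1.

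Replicate numbers were shared by the groups, but the labels do not say whether same-numbered samples belong together. The correlations of deviations between same-numbered libraries of different groups ran from −0.144 to 0.253, and 4 of 18 were above 0.1. Between control and treated LNCaP libraries they were 0.207, −0.0274 and 0.253 for replicates 1, 2 and 3. In 22Rv1 these values were −0.018, −0.0302 and 0.066. Whether the LNCaP libraries were paired is therefore not settled. With the replicate number as a block, 8 members were called in LNCaP (7 higher and 1 lower), 9 in 22Rv1, 10 in the average, 1 in the difference between lines (TPD52, adjusted p = 0.0453) and 28 between the DMSO groups. Calls over all 7086 genes also went up with the block, from 196 to 240 in LNCaP and from 404 to 450 in 22Rv1. They went from 426 to 502 in the average, from 52 to 68 in the difference and from 3473 to 3507 between the DMSO groups.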
